A study of Saccharomyces cerevisiae with 5 samples.

Results

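The genes described here encode the proteins that place, remodel and assemble nucleosomes in budding yeast, and the question was how nucleosomes lay over these genes themselves. They were taken from the tables of host genes by a list of 51 systematic names: general regulatory factors, subunits of the RSC, SWI/SNF, ISWI, INO80 and SWR1 remodellers, CHD1 and FUN30, histone chaperones, and the histone variants HTZ1 and CSE4. All 51 had a symbol in the RefSeq gene table of assembly R64, and 48 had a row among the 5264 host genes. No row carried the name of SWI1 (YPL016W), ISW1 (YBR245C) or HIR1 (YBL008W). The row whose name reads YBL008W holds the suffix letter of another gene in its strand column, so it was not taken as HIR1. Of the 48, 7 lie on chromosomes II and X, whose promoter ratios stood apart from those of other chromosomes, and are set apart at the end. The other 41 genes are described together.

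The libraries came from 5 Saccharomyces cerevisiae strains, each of which held DNA from another yeast on a YAC, an artificial chromosome that host cells replicate and pass on. Strains YAC1, YAC2 and YAC3 carried DNA of Kluyveromyces lactis, and strains YAC6 and YAC7 carried DNA of Debaryomyces hansenii. All 5 were grown in a medium without added tryptophan or uracil that held 2% dextrose, 1.5% yeast extract, 1% peptone and 0.01% adenine, of which yeast extract and peptone bring amino acids and bases of their own. The cells were turned into spheroplasts with zymolyase and were digested with micrococcal nuclease, which cuts the DNA between nucleosomes. Each strain gave 1 library of mononucleosomal DNA, so replicates are different strains, and p-values measure only the spread between these 5 libraries. The labels give no further genotype, and no strain without a YAC was analysed here.

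A typical yeast gene has a nucleosome-depleted stretch just upstream of its start site, a well-placed first nucleosome (+1) just downstream of it, and a regular array of nucleosomes over its body. General regulatory factors bind DNA in promoters and keep nucleosomes off it, RSC and SWI/SNF slide or eject nucleosomes, and the ISWI and CHD1 remodellers space them. SWR1 puts the variant HTZ1 into the nucleosomes beside the depleted stretch, INO80 positions nucleosomes there, and histone chaperones such as FACT, the chromatin assembly factor and the HIR complex hand histones to DNA during transcription and replication.

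The deposited values are signal: nucleosome coverage on a scale the sources used here do not state, with a host mean of 0.979 to 1.25 per table, in 10 bp bins that start 500 bp upstream of each listed start site and end at +1000 bp. How many reads lie behind a value is unknown. In units of the smallest difference between values (a step), the mean host bin held 396 steps in YAC3, the coarsest table, and 1739 in YAC1, the finest. The promoter ratio compares the promoter window, -120 to -20 bp, with the gene body, +100 to +500 bp, as log2 of mean promoter signal over mean body signal. A pseudocount of 0.1 times the gene's mean signal was added to both, so a more negative ratio means a deeper promoter trough. Its median over the 5252 host genes past the signal filter was -2.28, -1.76 and -1.74 in YAC1, YAC2 and YAC3, and -2.28 and -1.89 in YAC6 and YAC7. Each gene was therefore read as its difference from the host median of the same library. Outside chromosomes II and X, 4571 host genes remained, which serve as a background. Parts of the genome differed in signal between libraries: over single chromatin genes the mean signal reached 1.28 in YAC6 and 4.79 in YAC7, the last being FUN30 on chromosome I, and the share of this in any result was not tested.

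By the median of the list, the chromatin genes had depleted promoters in every library and lay below the host median. Their median promoter ratio was -2.54, -2.27 and -2.17 in YAC1, YAC2 and YAC3, and -2.67 and -2.07 in YAC6 and YAC7. Set against the host median of the same library, this was a difference of -0.35 ± 0.13 log2 units (SD, n = 5), against -0.10 ± 0.02 for the host genes outside chromosomes II and X. In each library 27 to 29 of the 41 genes lay below the host median. By mean difference over the 5 libraries 27 of 41 (65.9%) did, against 53.2% of the host genes outside chromosomes II and X. By limma with Benjamini-Hochberg adjustment over all 5252 genes, 19 of the 41 (46.3%) had a lower promoter ratio than the host median, where 32.2% of all host genes and 35.1% of those outside chromosomes II and X were called lower. A higher ratio was called for 4 of the 41 (9.76%), beside 32.3% of all host genes and 27.4% of those outside chromosomes II and X. The list thus held more genes called lower and fewer called higher than the background share, and the list itself was given no test.

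No chromatin gene kept a ratio above -1 in all libraries, against 6.28% of the host genes outside chromosomes II and X. The ratio was below -1 in every library for 33 of 41 genes (80.5%), against 68.9% of those host genes. Of the other 8 genes, 6 (14.6%) were above that line in YAC3 alone, the table with the fewest steps, against 6.02% of those host genes. The 6 genes in the lowest 10% of all host genes by mean difference were TBF1, SWR1, HIR2, MCM1, STH1 and NAP1, and RSC3 alone lay in the highest 10%.

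**Figure D1:**
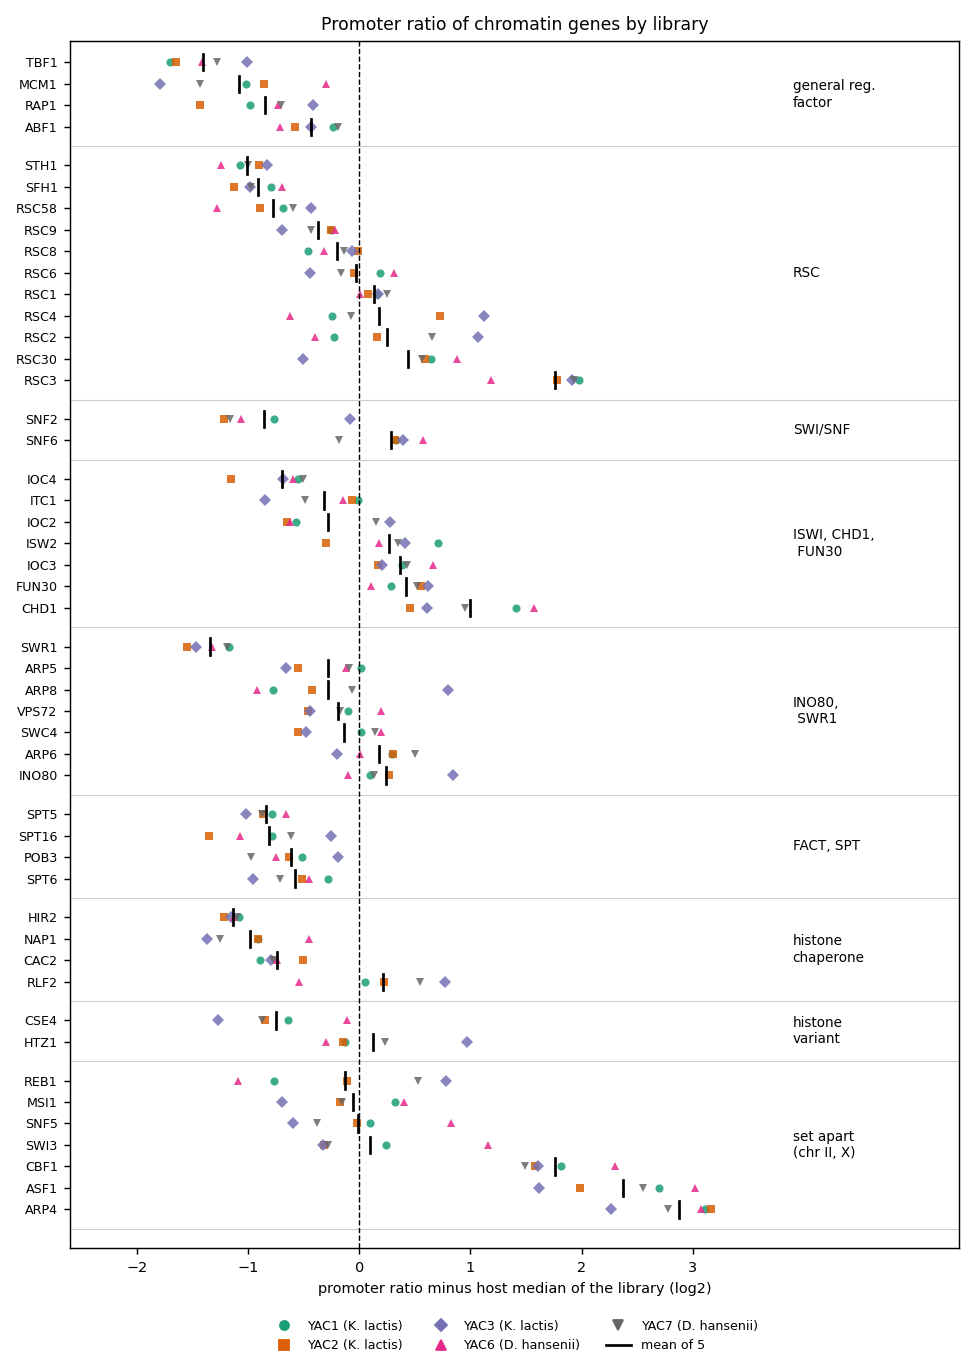
Promoter ratio of 48 chromatin genes minus the host median of the same library, in log2 units, with 1 symbol per library and a bar at the mean of 5, grouped by complex. All 4 general regulatory factors and all 4 FACT and SPT genes lie left of 0 in every library, RSC3 lies at 1.19 or more in all 5, and ARP4, ASF1 and CBF1 stand far to the right among the genes set apart.

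General regulatory factors are sequence-specific DNA-binding proteins that open promoters for many other genes. All 4 that were described (100%) had a lower promoter ratio than the host median, against 35.1% of the host genes outside chromosomes II and X. Each of the 4 was below the host median in all 5 libraries. Their median difference was -0.97. TBF1 (YPL128C), which binds promoters of small nucleolar RNA genes and subtelomeric repeats, had the lowest mean promoter ratio of all 41 genes. Its promoter signal was 0.0203, 0.0866 and 0.315 in YAC1, YAC2 and YAC3, and 0.0196 and 0.117 in YAC6 and YAC7. Over its body the signal was 1.71, 2.09 and 2.96 in YAC1, YAC2 and YAC3, and 1.29 and 1.83 in YAC6 and YAC7, so the promoter was the lower in every library. The mean difference from the host median was -1.41 ± 0.28 (SD, n = 5; limma adjusted p = 2.61e-05).

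MCM1 (YMR043W), a MADS-box factor of cell-cycle and mating genes, had differences of -1.02, -0.86 and -1.79 in YAC1, YAC2 and YAC3, and -0.30 and -1.43 in YAC6 and YAC7. All were negative, but they covered a wide range, with a mean of -1.08 ± 0.57 (SD, n = 5; limma adjusted p = 0.00133). RAP1 (YNL216W), the factor of ribosomal protein genes and telomeres, stood at -0.98, -1.44 and -0.42 in YAC1, YAC2 and YAC3, and at -0.73 and -0.70 in YAC6 and YAC7, with a mean of -0.85 ± 0.38 (SD, n = 5; limma adjusted p = 0.00115). ABF1 (YKL112W), which acts at promoters and replication origins, was the least deep, at -0.43 ± 0.22 (SD, n = 5; limma adjusted p = 0.0139). That call was lost with a pseudocount of 0.5 times the gene mean (-0.16, adjusted p = 0.0669), with the lowest 100 bp in place of the fixed window (-0.23, adjusted p = 0.186) and without YAC2 (-0.39, adjusted p = 0.0505).

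The stretch of low signal around the promoter differed among these factor genes. Measured as the run of smoothed bins under 50% of the body signal, the depleted span averaged 510 bp at TBF1, 468 bp at MCM1, 382 bp at RAP1 and 194 bp at ABF1. The median over all 41 genes was 160 bp, against 174 bp over the host genes outside chromosomes II and X. ABF1 was thus close to both medians and the other 3 were above them. The cut follows the body signal, so a gene with a high body counts small upstream peaks as depleted: at TBF1 in YAC2 the signal was 1.04 at -280 bp, beside a body of 2.09. At TBF1 the run met the start of the table in 3 libraries and at MCM1 in 4, so the run was cut short there. This span was added after the data were seen and was given no test.

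RSC is the abundant, essential remodeller that widens depleted promoters. Its 11 described genes did not share a direction: 4 had a lower promoter ratio (STH1, RSC9, RSC58, SFH1), 1 a higher one (RSC3), and 6 did not pass the test. These shares were 36.4% lower and 9.09% higher, against 35.1% and 27.4% of the host genes outside chromosomes II and X. The share called lower was thus near the background. STH1 (YIL126W), the ATPase of the complex, differed by -1.07, -0.90 and -0.83 in YAC1, YAC2 and YAC3, and by -1.24 and -0.999 in YAC6 and YAC7. The 5 values were close together, with a mean of -1.01 ± 0.16 (SD, n = 5; limma adjusted p = 6.24e-05). SFH1 (YLR321C), the SNF5-related subunit, was almost as deep at -0.92 ± 0.17 (SD, n = 5; limma adjusted p = 0.000119). RSC58 (YLR033W) averaged -0.78 ± 0.33 (adjusted p = 0.0012) and RSC9 (YML127W) -0.37 ± 0.20 (adjusted p = 0.0239; SD, n = 5 for both). The RSC58 call was lost with a pseudocount of 0.5 times the gene mean (-0.14, adjusted p = 0.163). The RSC9 call was the least stable: it was lost with that pseudocount (-0.14, adjusted p = 0.101), with a promoter window of -150 to 0 bp (-0.19, adjusted p = 0.205), with the lowest 100 bp (-0.06, adjusted p = 0.701), with the host median taken outside chromosomes II and X (-0.27, adjusted p = 0.0764), and without YAC1, YAC3 or YAC7 (adjusted p = 0.0582, 0.0549 and 0.0756 in that order).

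RSC3 (YDR303C) encodes a zinc-cluster subunit that binds DNA and directs RSC to promoters, and its own promoter had the highest ratio of the 41 genes. Its promoter signal was 0.749, 1.55 and 0.887 in YAC1, YAC2 and YAC3, and 0.414 and 0.860 in YAC6 and YAC7. Body signal was 0.954, 1.54 and 0.774 in YAC1, YAC2 and YAC3, and 1.00 and 0.832 in YAC6 and YAC7, so the promoter was below the body in YAC1 and YAC6 only. The difference from the host median was 1.98, 1.78 and 1.92 in YAC1, YAC2 and YAC3, and 1.19 and 1.93 in YAC6 and YAC7 (mean 1.76 ± 0.33, SD, n = 5; limma adjusted p = 3.55e-05). The peak next upstream, between -170 and -150 bp in every library, bordered the promoter window, and the gene still had a short trough, whose lowest 100 bp were centred at -45 bp in all 5 libraries. Its depleted span averaged 32 bp, and no bin fell under 50% of the body signal in YAC2 and YAC3.

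RSC30 (YHR056C), the paralogue of RSC3, also had its lowest stretch close to the start site, at -25 or -45 bp. Its difference was 0.65, 0.59 and -0.51 in YAC1, YAC2 and YAC3, and 0.88 and 0.56 in YAC6 and YAC7. Above the host median in 4 of 5 libraries, it did not pass the test (mean 0.43 ± 0.54, SD, n = 5; limma adjusted p = 0.0931), and without YAC3 it did (0.67, adjusted p = 0.00336). RSC1 (YGR056W) and RSC2 (YLR357W) encode alternative bromodomain subunits of different RSC forms. RSC1 lay between 0.01 and 0.25 above the host median in every library, and RSC2 lay between -0.39 in YAC6 and 1.07 in YAC3, so neither passed (adjusted p = 0.350 for RSC1 and 0.341 for RSC2). RSC4, RSC6 and RSC8 had mean differences of 0.18, -0.03 and -0.20 and did not pass either.

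SWI/SNF, the related but less abundant remodeller of inducible genes, was left with SNF2 and SNF6 outside the genes set apart. SNF2 (YOR290C), its ATPase, had a lower ratio, with promoter signal of 0.0571, 0.0639 and 0.271 in YAC1, YAC2 and YAC3, and 0.0222 and 0.0807 in YAC6 and YAC7. The difference was negative in all 5 libraries, at -0.86 ± 0.47 (SD, n = 5; limma adjusted p = 0.00225), and smallest in YAC3 at -0.08. SNF6 (YHL025W) did not pass (0.29 ± 0.28, SD, n = 5; limma adjusted p = 0.117). Its lowest 100 bp lay at -355 bp in all 5 libraries, the upstream edge of the range searched, with a peak at -220 or -230 bp between that trough and the start site.

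**Figure D2:**
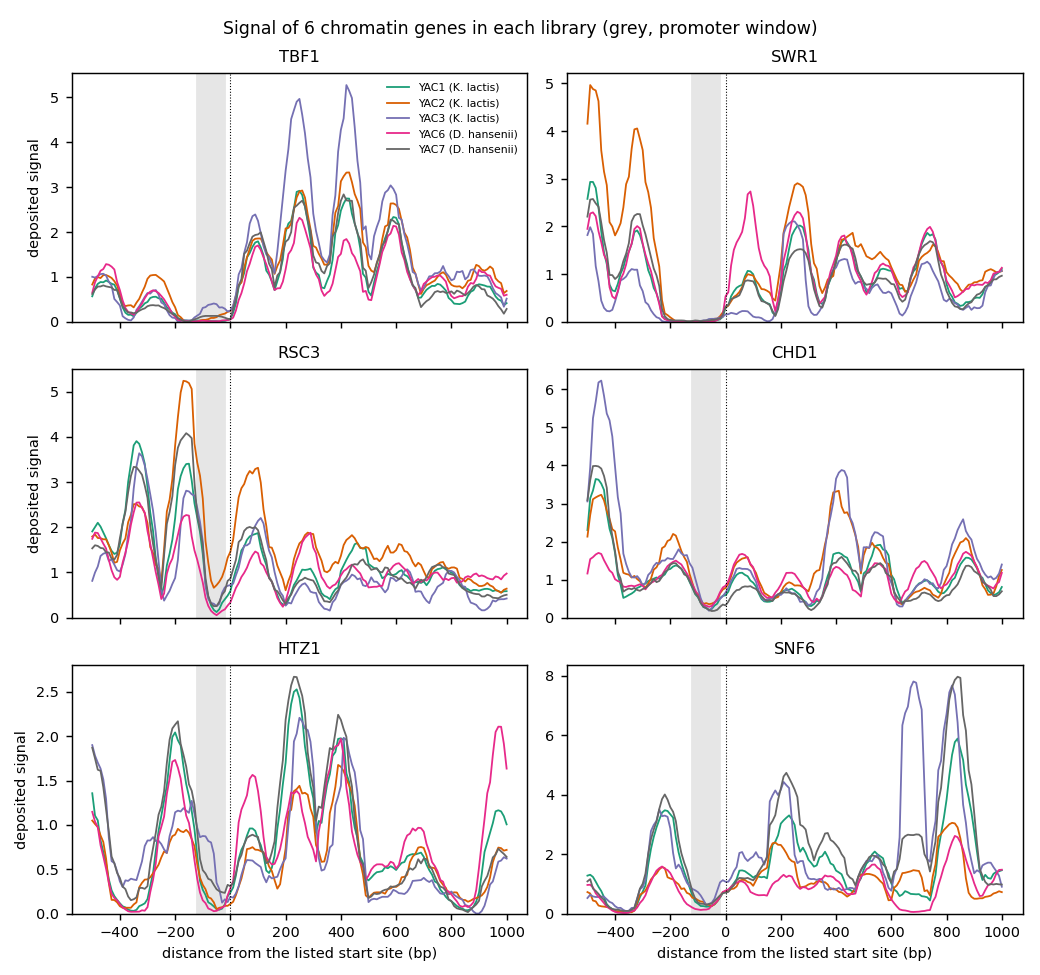
Deposited signal over TBF1, SWR1, RSC3, CHD1, HTZ1 and SNF6 against distance from the listed start site in bp, 1 line per library, with the promoter window of -120 to -20 bp in grey. Signal in the window is low at TBF1, with YAC3 the highest of its 5 lines, and close to 0 in all lines at SWR1, the trough of RSC3 is short and bounded by a tall upstream nucleosome, that of CHD1 is shallow, and HTZ1 and SNF6 have a second trough upstream of a nucleosome.

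The class that holds the spacing remodellers had the highest median of the 8 classes. Of the 7 described genes of the ISWI, CHD1 and FUN30 class, 3 had a higher promoter ratio (CHD1, IOC3, FUN30), 1 a lower one (IOC4) and 3 did not pass the test, and the class median was 0.27. These shares were 42.9% higher and 14.3% lower, against 27.4% and 35.1% of the host genes outside chromosomes II and X. With RSC3, the genes CHD1, IOC3 and FUN30 make up the 4 higher calls among the 41 genes. CHD1 (YER164W), which spaces nucleosomes as a single polypeptide, had promoter signal of 0.409, 0.513 and 0.545 in YAC1, YAC2 and YAC3, and 0.492 and 0.362 in YAC6 and YAC7. The difference from the host median was 1.41, 0.46 and 0.61 in YAC1, YAC2 and YAC3, and 1.57 and 0.95 in YAC6 and YAC7, above 0 in all 5 (mean 1.00 ± 0.49, SD, n = 5; limma adjusted p = 0.00211). Its depleted span averaged 74 bp, and 5.88% of host genes outside chromosomes II and X had a shorter one.

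IOC3 (YFR013W), the partner of ISW1 in 1 of its complexes, averaged 0.37 ± 0.20 (SD, n = 5; limma adjusted p = 0.0396). FUN30 (YAL019W), a remodeller of silent chromatin and DNA breaks, averaged 0.42 ± 0.22 (SD, n = 5; limma adjusted p = 0.0265). Both were above the host median in all 5 libraries, and both calls were lost without YAC1 (adjusted p = 0.120 for IOC3 and 0.0684 for FUN30), YAC2 (0.0560 for IOC3 and 0.0816 for FUN30) or YAC7 (0.110 for IOC3 and 0.0872 for FUN30). IOC3 also lost its call without YAC6 (adjusted p = 0.107) and with a pseudocount of 0.5 times the gene mean (0.09, adjusted p = 0.245). FUN30 lost it without YAC3 (adjusted p = 0.0517) and with a pseudocount of 0.02 (0.44, adjusted p = 0.0545). The CHD1 call was kept under every alternative run. IOC4 (YMR044W), which joins ISW1 in its other complex, was the lower one, at -0.55, -1.15 and -0.69 in YAC1, YAC2 and YAC3, and -0.59 and -0.51 in YAC6 and YAC7 (mean -0.70 ± 0.26, SD, n = 5; limma adjusted p = 0.0013). Its depleted span averaged 418 bp. The gene next to it upstream is MCM1, which is read in the same direction.

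ISW2 (YOR304W) and ITC1 (YGL133W), ATPase and partner of the ISW2 complex, and IOC2 (YLR095C), which joins ISW1 and IOC4, did not pass. ISW2 differed by 0.27 ± 0.37, ITC1 by -0.31 ± 0.35 and IOC2 by -0.28 ± 0.46 (SD, n = 5 for each; limma adjusted p = 0.179, 0.0966 and 0.184 in that order). ITC1 was below the host median in all 5 libraries, while ISW2 and IOC2 had libraries on both sides.

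Among the 7 described INO80 and SWR1 genes, only SWR1 passed the test, as lower (14.3%, against 35.1% of the host genes outside chromosomes II and X). SWR1 (YDR334W), the ATPase that exchanges HTZ1 into nucleosomes, had promoter signal of 0.0144, 0.0259 and 0.0395 in YAC1, YAC2 and YAC3, and 0.0113 and 0.0354 in YAC6 and YAC7. Those values are close to 0 in all libraries, beside body signal of 0.850 to 1.48. The difference from the host median was -1.17, -1.55 and -1.47 in YAC1, YAC2 and YAC3, and -1.32 and -1.19 in YAC6 and YAC7 (mean -1.34 ± 0.17, SD, n = 5; limma adjusted p = 1.42e-05). INO80 (YGL150C), the ATPase of the other complex, stood at 0.24 ± 0.36 (SD, n = 5; limma adjusted p = 0.21), with 0.84 in YAC3 and -0.11 in YAC6. The remaining 5 genes encode actin-related proteins of both complexes (ARP5, ARP6, ARP8), SWC4, which SWR1 shares with the NuA4 acetyltransferase, and VPS72, the HTZ1-binding subunit. Their mean differences lay between -0.28 at ARP5 and ARP8 and 0.18 at ARP6, and none passed.

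FACT and the SPT elongation factors carry histones through transcription. All 4 described genes (100%) had a lower promoter ratio, against 35.1% of the host genes outside chromosomes II and X. Each lay below the host median in all 5 libraries, with mean differences close to each other. Of other genes of this class that are not on the list, SPT4 (-0.87) and SPN1 (-0.53) were called lower. NHP6A did not pass (0.57, limma adjusted p = 0.156). SPT5 (YML010W), the elongation factor bound to RNA polymerase, differed by -0.79, -0.86 and -1.02 in YAC1, YAC2 and YAC3, and by -0.66 and -0.88 in YAC6 and YAC7 (mean -0.84 ± 0.13, SD, n = 5; limma adjusted p = 0.00015). The FACT subunits SPT16 (YGL207W) and POB3 (YML069W) averaged -0.82 ± 0.42 and -0.61 ± 0.29 (SD, n = 5; limma adjusted p = 0.00204 and 0.00348). SPT6 (YGR116W), a histone chaperone of elongation, averaged -0.58 ± 0.26 (SD, n = 5; limma adjusted p = 0.00357). The SPT6 call was lost with a promoter window of -150 to 0 bp (-0.25, adjusted p = 0.155). With the lowest 100 bp in place of the fixed window, SPT16 (-0.41, adjusted p = 0.0544) and POB3 (-0.28, adjusted p = 0.165) did not pass.

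Histone chaperone genes were lower in 3 of 4 cases (75%), against 35.1% of the host genes outside chromosomes II and X. HIR2 (YOR038C), a subunit of the HIR complex that assembles nucleosomes outside replication, had the smallest spread between libraries of all 41 genes. It differed by -1.08, -1.22 and -1.15 in YAC1, YAC2 and YAC3, and by -1.13 and -1.10 in YAC6 and YAC7, with a mean of -1.14 ± 0.05 (SD, n = 5; limma adjusted p = 1.86e-05). NAP1 (YKR048C), a histone chaperone and import factor, averaged -0.98 ± 0.36 (adjusted p = 0.000403), and CAC2 (YML102W) of the chromatin assembly factor -0.74 ± 0.14 (adjusted p = 0.000351; SD, n = 5 for both). RLF2 (YPR018W), the largest subunit of that factor, did not pass, with 0.77 in YAC3, -0.54 in YAC6 and a mean of 0.21 ± 0.50 (SD, n = 5; limma adjusted p = 0.361).

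The histone variant genes were unlike each other. CSE4 (YKL049C), the centromeric variant, had a lower ratio at -0.75 ± 0.42 (SD, n = 5; limma adjusted p = 0.00334), negative in all 5 libraries and weakest in YAC6 at -0.11. With the lowest 100 bp in place of the fixed window it did not pass (-0.49, adjusted p = 0.0539). HTZ1 (YOL012C) had promoter signal of 0.188, 0.211 and 0.616 in YAC1, YAC2 and YAC3, and 0.114 and 0.416 in YAC6 and YAC7. Its difference was 0.97 in YAC3, 0.23 in YAC7 and between -0.30 and -0.13 in the other 3 libraries, and it did not pass (mean 0.13 ± 0.51, SD, n = 5; limma adjusted p = 0.589). A peak stood at -200 bp at HTZ1 by its median over libraries, and the lowest 100 bp lay beyond it, at -355 or -345 bp, in YAC1, YAC6 and YAC7, and at -35 bp in YAC2 and -5 bp in YAC3. Of these places, -355 bp is the upstream edge of the range searched. The upstream neighbour of HTZ1, PLB3, is read in the opposite direction.

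**Figure D3:**
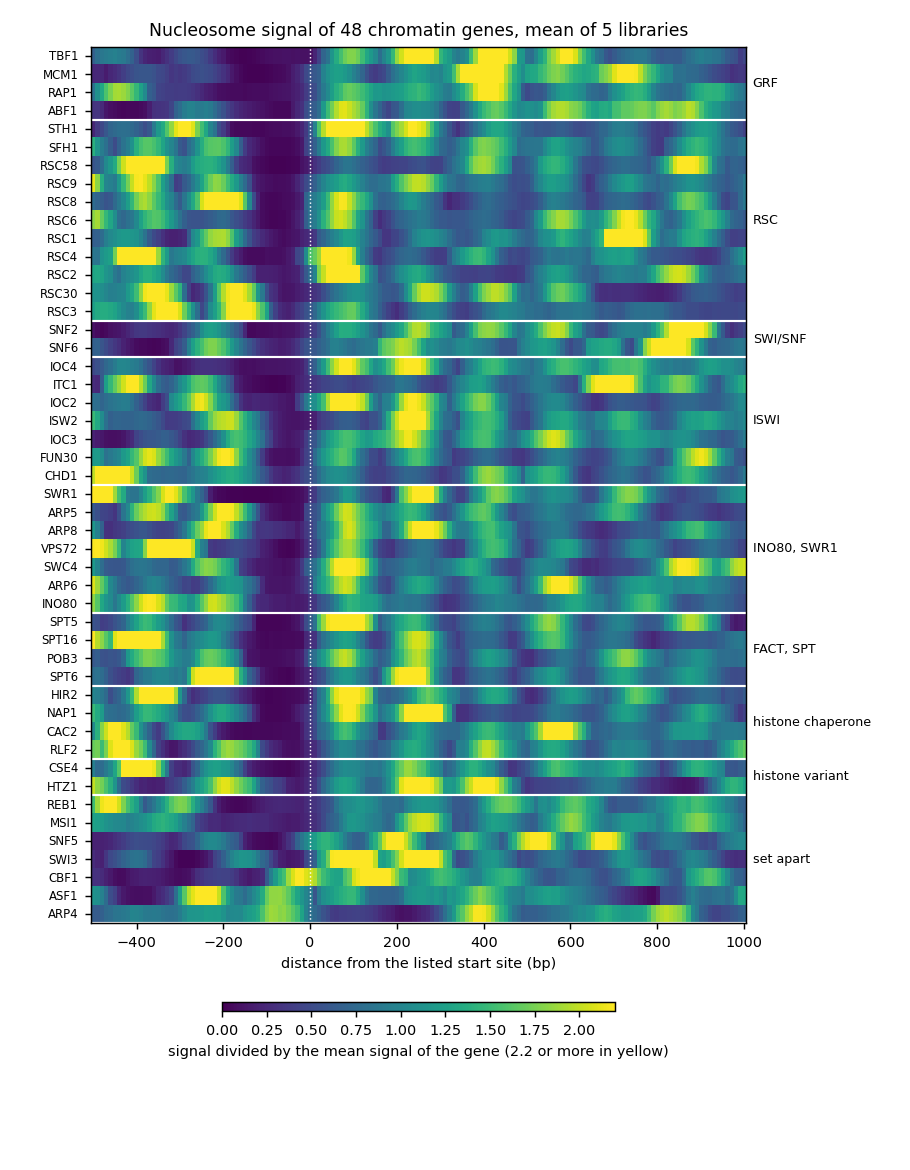
Signal over 48 chromatin genes, divided by the mean signal of each gene and averaged over the 5 libraries, against distance from the listed start site in bp, grouped by complex and sorted within a group by promoter ratio. Dark stretches left of 0 are depleted promoters: the one at RSC3 is short, and among the genes set apart a nucleosome lies over the promoter window of ARP4 and ASF1.

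The place of the trough and of the +1 nucleosome was much the same as in other host genes. The lowest 100 bp were centred at a median of -75 bp in every library, for the 41 genes and for the host genes outside chromosomes II and X alike. The lowest stretch lay between -95 and -55 bp for 27 of the 41 genes (65.9%), upstream of that for 11 (26.8%) and downstream for 3 (7.32%), against 57%, 25.5% and 17.5% of those host genes. The +1 nucleosome, sought as the highest smoothed point from 0 to 150 bp, lay between 60 and 110 bp by its median over libraries at 38 of the 41 genes (92.7%), against 87.7% of those host genes. At the 3 others, SNF6, ISW2 and ITC1, the highest point was at the 150 bp edge of the searched range in at least 3 of 5 libraries. The peak just upstream of the trough was the taller one over the chromatin genes: in median profiles with each gene divided by its own mean, it reached 1.25, 1.30 and 1.06 in YAC1, YAC2 and YAC3, and 1.48 and 1.22 in YAC6 and YAC7, against 0.954, 0.970 and 0.841 in YAC1, YAC2 and YAC3, and 1.08 and 0.915 in YAC6 and YAC7, over those host genes. A line over 41 genes is the more uneven of both, which itself raises its highest point.

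**Figure D4:**
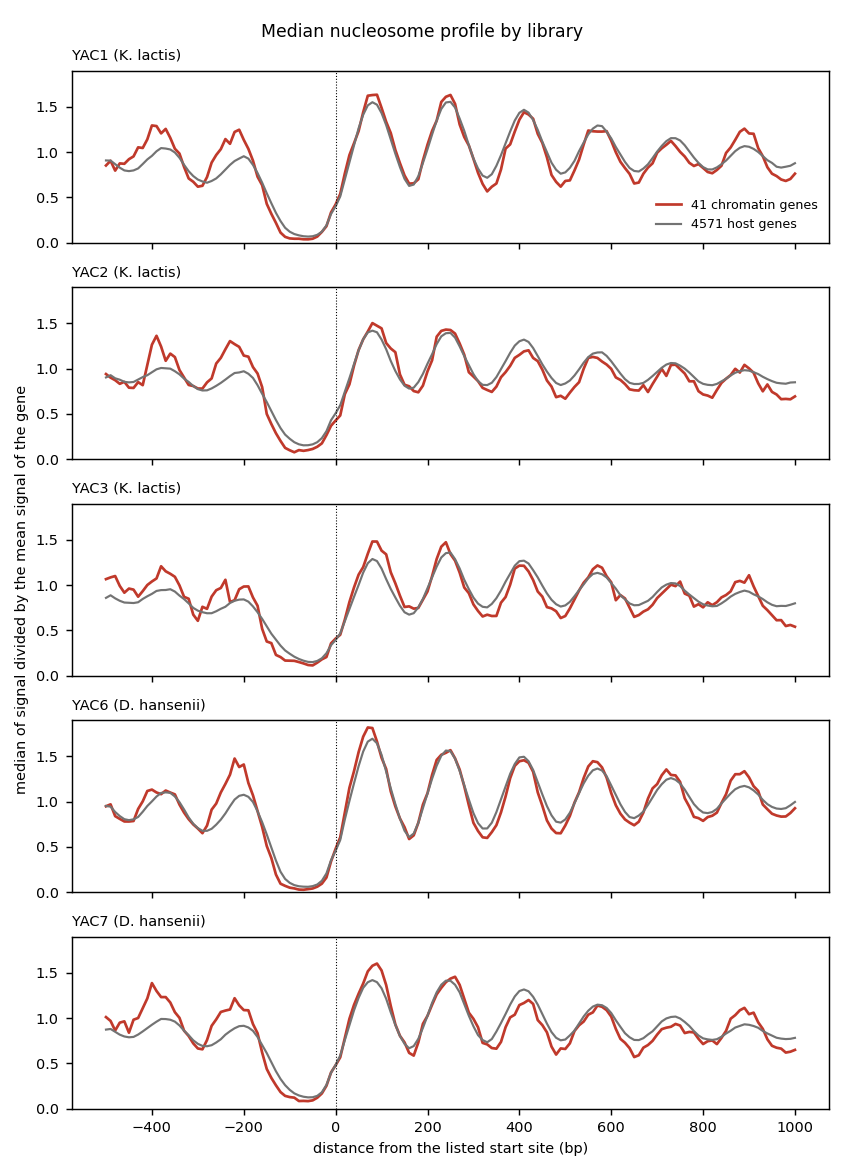
Median signal, with each gene divided by its own mean, of the 41 chromatin genes and of 4571 host genes outside chromosomes II and X, against distance from the listed start site in bp, with 1 panel per library. The chromatin genes have the lower trough and the taller peak just upstream of it in each panel, and the +1 peak lies at 70 to 90 bp in both lines.

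The height of the +1 nucleosome was taken as log2 of that highest point over the mean signal from 0 to +1000 bp, again set against the host median. It was called higher for 17 of the 41 genes (41.5%), beside 34.3% of all host genes and 34% of those outside chromosomes II and X. A lower height was called for 11 (26.8%), beside 33.3% of all host genes and 33.7% of those outside chromosomes II and X. Higher +1 nucleosomes were found over 6 of 11 RSC genes, 4 of 7 INO80 and SWR1 genes, 3 of 7 ISWI, CHD1 and FUN30 genes, 2 of 4 FACT and SPT genes and 2 of 4 histone chaperone genes. Among these, the FUN30 call was lost with a pseudocount of 0.5 times the gene mean and without YAC1, YAC2, YAC6 or YAC7. The IOC4 call was lost without YAC1 or YAC7, and the POB3 call without YAC7. Both SWI/SNF genes and both histone variant genes were lower. SNF6 was not when the +1 nucleosome was sought as far as 200 bp (0.02, adjusted p = 0.845) or without YAC1 (adjusted p = 0.0679) or YAC7 (adjusted p = 0.0561). The HTZ1 call (adjusted p = 0.0483) was lost with that search (0.17, adjusted p = 0.211) and without YAC1, YAC2, YAC3 or YAC7. It was also lost with smoothing at an SD of 10 bp (adjusted p = 0.0553) and with the host median outside chromosomes II and X (0.0519). The CSE4 call was lost with that search (-0.07, adjusted p = 0.549) and without YAC1, YAC2 or YAC7 (adjusted p = 0.0873, 0.0621 and 0.0554).

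STH1 had the tallest +1 nucleosome relative to its body. Its height above the host median was 1.05, 0.86 and 1.40 in YAC1, YAC2 and YAC3, and 0.49 and 1.17 in YAC6 and YAC7 (mean 0.99 ± 0.34, SD, n = 5; limma adjusted p = 9.72e-05). SPT5 followed at 0.95 ± 0.22 and RSC4 (YKR008W), a bromodomain subunit, at 0.91 ± 0.45 (SD, n = 5; limma adjusted p = 8.9e-05 for SPT5 and 0.000227 for RSC4). These 3 genes were above the host median in all 5 libraries, with their lowest height in YAC6. VPS72 (YDR485C) was among the most even of the higher genes, between 0.52 and 0.62 in every library.

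At the other end, ITC1 stood at -1.17 ± 0.35, ISW2 at -0.83 ± 0.28 and RSC58 at -0.65 ± 0.20 (SD, n = 5; limma adjusted p = 9.59e-05, 0.000181 and 0.000354 in that order). All 3 were below the host median in all 5 libraries. The ISW2 value turns round when the +1 nucleosome is sought as far as 200 bp, where the gene is called higher (0.23, adjusted p = 0.0493), and its highest point had been at the 150 bp edge in 4 of 5 libraries. SWR1, with its deep promoter, had a lower +1 height at -0.62 ± 0.80 (SD, n = 5; limma adjusted p = 0.0264), the widest range of the 41 genes, with -1.83 in YAC3 and 0.40 in YAC6. That call was lost without YAC2, YAC3 or YAC7 (adjusted p = 0.0823, 0.0917 and 0.0515 in that order; -0.31 without YAC3) and with the search as far as 200 bp (-0.24, adjusted p = 0.149). Of the 19 genes with a lower promoter ratio, 6 had a higher +1 nucleosome (STH1, IOC4, POB3, SPT5, HIR2, NAP1), 5 a lower one (MCM1, RSC58, SNF2, SWR1, CSE4), and 8 did not pass. Over the host genes outside chromosomes II and X, whatever their promoter ratio, 34% were called higher and 33.7% lower. The shares among host genes with a lower promoter ratio were not counted. With the search as far as 200 bp, IOC4 (adjusted p = 0.063) and POB3 (0.158) were no longer called higher. SWR1 and CSE4 were then no longer called lower.

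The regularity of the array was scored as the highest autocorrelation at lags of 140 to 190 bp of the smoothed, detrended profile from 0 to +1000 bp. A higher score was called for 9 of the 41 genes (22.0%), beside 22.2% of all host genes and 22.9% of those outside chromosomes II and X. A lower one was called for 7 (17.1%), beside 22.8% of all host genes and 22.6% of those outside chromosomes II and X. Both shares were near the background. By complex, 3 of 11 RSC genes, 2 of 7 ISWI, CHD1 and FUN30 genes and 1 of 7 INO80 and SWR1 genes were higher. So was 1 of 4 genes in each of the general regulatory factors, FACT and SPT, and the histone chaperones. Lower were both SWI/SNF genes, 2 of 4 FACT and SPT genes, 2 of 11 RSC genes and 1 of 7 INO80 and SWR1 genes. Without YAC1, the calls of FUN30 and POB3 (higher) and of SNF2, INO80, SPT16 and SPT6 (lower) were lost. The SNF2 and SPT6 calls were also lost without YAC2, YAC3 or YAC7, and the SPT16 call without YAC3. FUN30 also lost its call without YAC2 or YAC7, and POB3 without YAC2, YAC6 or YAC7. With the trend kept, FUN30, POB3, HIR2 and SPT16 no longer passed. With the profile cut at +800 bp, SNF2 was called higher (0.26, adjusted p = 0.0393), and INO80 and SPT16 no longer passed.

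IOC2 had the highest score, at 0.47, 0.48 and 0.49 above the host median in YAC1, YAC2 and YAC3, and 0.10 and 0.50 in YAC6 and YAC7 (mean 0.41 ± 0.17, SD, n = 5; limma adjusted p = 0.00082). TBF1 was next, above the median in all 5 libraries at 0.38 ± 0.11, and RSC30 followed at 0.29 ± 0.16 (SD, n = 5; limma adjusted p = 0.000494 for TBF1 and 0.00458 for RSC30). The lowest scores were those of SNF6 at -0.36 ± 0.28, RSC4 at -0.29 ± 0.13 and RSC58 at -0.28 ± 0.10 (SD, n = 5; limma adjusted p = 0.00793, 0.00279 and 0.002 in that order). RSC4 and RSC58 were below the median in all 5 libraries and SNF6 in 4. With the profile cut at +800 bp, SNF6 (-0.19, adjusted p = 0.132) and RSC58 (-0.11, adjusted p = 0.244) no longer passed. RSC4 thus had a tall +1 nucleosome and a low score, and RSC58 a low +1 nucleosome, a low score and a deep promoter.

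**Figure D5:**
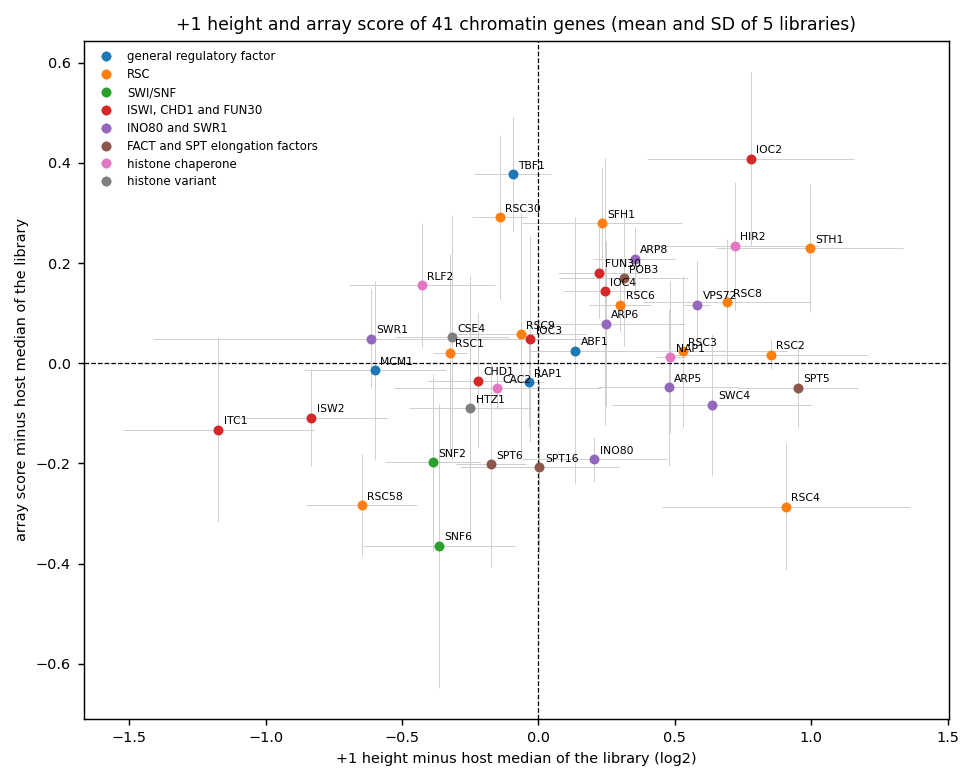
Mean +1 height (log2) against mean array score of the 41 chromatin genes, both minus the host median of the library, with SD over 5 libraries as grey bars and colours for the complexes. STH1, SPT5 and RSC4 lie at the right, ITC1 and ISW2 at the left, IOC2 and TBF1 at the top and SNF6 at the bottom.

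The strain groups were compared to see whether the origin of the YAC goes with a different promoter at these genes. No gene passed at an adjusted p of 0.05: limma called 0 of 5252 host genes (0%), with 16 (0.305%) at an unadjusted p under 0.05, and 0 of the 41 chromatin genes by either measure. Evenly spread p-values would put a share of 0.05 under that line. Libraries differed across the groups: the host median promoter ratio was -2.28 in YAC1 and YAC6, and -1.76, -1.74 and -1.89 in YAC2, YAC3 and YAC7. The part of this in the contrast was not tested. With 3 and 2 libraries the contrast is a coarse test. The smallest unadjusted p among the 41 was that of RSC4, whose difference from the host median was -0.25, 0.72 and 1.12 in the K. lactis YAC strains YAC1, YAC2 and YAC3, and -0.63 and -0.07 in the D. hansenii YAC strains YAC6 and YAC7. The group means differed by 0.88 ± 0.44 (SE; limma adjusted p = 0.997), and the groups overlap. SWC4 (YGR002C) came next, at 0.01, -0.55 and -0.48 in YAC1, YAC2 and YAC3 and 0.19 and 0.14 in YAC6 and YAC7. These groups do not overlap, but the gene was picked for its small unadjusted p and did not pass. The group means differed by -0.51 ± 0.29 (SE; limma adjusted p = 0.997).

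Across all 5 libraries the genes varied by a median SD of 0.30 log2 units, against 0.33 over the host genes outside chromosomes II and X. RSC4 (SD 0.72), ARP8 (0.69) and RSC2 (0.61) spread most, each with its highest value in YAC3 and its lowest in YAC6. The median correlation of a gene's profile between libraries was 0.840 for the 41 genes and 0.861 for the host genes outside chromosomes II and X, over bins that share signal with their neighbours.

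Genes with either kind of upstream neighbour were below the host median. The neighbour was read in the opposite direction, so that the intergenic stretch holds promoters of both genes, at 19 of the 41 genes (46.3%), against 51.7% of the host genes outside chromosomes II and X. The median difference from the host median was -0.28 for these 19 and -0.45 for the 22 with a neighbour read in the same direction, against -0.05 and -0.11 for the same classes of host genes. TBF1 belongs to the second class, and the gene upstream of it is HHO1, which encodes the linker histone.

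Other genes of the same complexes, 38 in all, were counted the same way. Of these, 37 had a row and 31 lay outside chromosomes II and X. A lower promoter ratio was called for 19 of the 31 (61.3%) and a higher one for 1 (3.23%), beside 35.1% and 27.4% of the host genes outside chromosomes II and X, with a median difference of -0.49. For +1 height 14 were higher (45.2%) and 7 lower (22.6%), beside 34% and 33.7% of those host genes. For the array score 3 were higher (9.68%) and 5 lower (16.1%), both under the background of 22.9% and 22.6%.

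The 7 genes on chromosomes II and X were read apart. On chromosome II the listed window was depleted, but less than elsewhere, with a median promoter ratio of -1.85, -1.52 and -1.48 in YAC1, YAC2 and YAC3, and -1.68 and -1.60 in YAC6 and YAC7, against -2.37, -1.84 and -1.84 in YAC1, YAC2 and YAC3, and -2.41 and -1.98 in YAC6 and YAC7, over the host genes outside both chromosomes. On chromosome X the listed start sites did not mark the depleted stretch, and the median promoter ratio was 0.07, 0.04 and 0.06 in YAC1, YAC2 and YAC3, and 0.13 and -0.03 in YAC6 and YAC7, with the lowest 100 bp near -285 bp. ARP4 (YJL081C), an actin-related subunit of INO80, SWR1 and NuA4, had more signal over its listed promoter than over its body in every library. Its difference was 3.11, 3.16 and 2.26 in YAC1, YAC2 and YAC3, and 3.07 and 2.78 in YAC6 and YAC7 (mean 2.88 ± 0.37, SD, n = 5; limma adjusted p = 3.21e-06), and its lowest 100 bp lay downstream of the listed start site, at 45 or 55 bp. The centres searched run from -355 to 55 bp, so a trough found at either end may lie further out. ASF1 (YJL115W), a histone chaperone, stood at 2.37 ± 0.57 (SD, n = 5; limma adjusted p = 2.85e-05). CBF1 (YJR060W), the regulatory factor of centromeres and methionine genes, stood at 1.76 ± 0.32 (SD, n = 5; limma adjusted p = 3.48e-05), but its lowest 100 bp lay between -355 and -185 bp, and read there the same gene is called lower (-0.71, adjusted p = 0.00108). On chromosome X these values describe the listed window, not the promoters of the genes.

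The 4 others of this set did not pass. SWI3 (YJL176C), a SWI/SNF core subunit, averaged 0.10 ± 0.64, with its lowest 100 bp at -285 or -265 bp, and by that stretch it was called lower (-0.89, adjusted p = 0.00615). REB1 (YBR049C), a regulatory factor, SNF5 (YBR289W), a SWI/SNF subunit, and MSI1 (YBR195C), of the chromatin assembly factor, all lie on chromosome II and averaged -0.13 ± 0.81, -0.01 ± 0.55 and -0.06 ± 0.44 (SD, n = 5; limma adjusted p = 0.688, 0.952 and 0.776 in that order). REB1 had the widest range of promoter ratios of the 48 genes, with promoter signal of 0.0820, 0.430 and 1.37 in YAC1, YAC2 and YAC3, and 0.0329 and 0.602 in YAC6 and YAC7. Read by its lowest 100 bp, between -175 and -115 bp, it was called lower (-0.39, adjusted p = 0.0448).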

How the data were processed

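Per the labels' protocols, mononucleosomal DNA was gel-purified and made into Illumina libraries, and CASAVA 1.7.0 is named in the submitters' processing notes. Aligner, genome build, read extension and the source of start sites: not given in the sources used here. The deposited values are signal (coverage) in 151 bins per gene, per the file headers, on a scale that is not stated, so no count model was run and no interval or floor was computed. The 5 tables of insert genes were not used. A suffix letter in the strand column was put back for 214 names. RefSeq's table (assembly R64; 5261 of 5264 host rows matched) gave names and neighbours only. Genes under 10% of the host median signal in any library were left out, which left 5252 and removed none of the 48 members.

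Each measure was centred on the host median of its library. An intercept (or the difference K. lactis YAC minus D. hansenii YAC) was fitted over all genes with limma 3.58.1 in R 4.3.3 (empirical Bayes with a mean trend, two-sided, Benjamini-Hochberg adjustment, threshold 0.05), and the array score over 5251 genes, since 1 gave none. Measures and plots used Python 3.11.15 with numpy 2.4.6, scipy 1.17.1, pandas 2.3.3 and matplotlib 3.10.9, with a Gaussian of SD 20 bp for smoothing. The fits were tested on simulated data with large shifts. With smaller simulated shifts and each gene's own spread, the contrast of strain groups recovered none of the changed genes, so its count of 0 says little about moderate differences. The members and lists were chosen with earlier results of these data known, so a list is given by counts and medians. Genes are named where they are general regulatory factors or histone variants, the lowest and highest promoter ratio of a class, the 3 highest and 3 lowest +1 heights and array scores, the 2 smallest p between strain groups, or on chromosomes II and X. The other genes named in the text, and the spans, upstream peaks, neighbours and profile correlations, were chosen after values were seen. A planned motif search and print of promoter sequences was not run.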

Additional observations from a re-analysis of the deposited data

Results flagged for a closer look

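In 4 of 44 sets of 5 library values tested, 1 library stood far from the other 4, by the gap to its nearest neighbour relative to the whole range. Chance alone gives this for about 5% of sets. For RSC3 the promoter ratio was 1.19 above the host median in YAC6, against 1.78 to 1.98 in the other 4 libraries, and all 5 remained above it. RSC30, its paralogue, lay at -0.51 in YAC3, against 0.56 to 0.88 in the others, so YAC3 alone put it below the host median. The IOC4 promoter ratio was -1.15 in YAC2, against -0.69 to -0.51 in the others, all on the same side. For IOC2 the array score was 0.0984 above the host median in YAC6, against 0.469 to 0.502 in the others. YAC3 is the table with the fewest steps per bin (396), and YAC6 one with many (1479). Whether this has a part in these values was not tested.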

How the results depend on the processing

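Among the counts and medians, 171 values under an alternative moved by less than 1.5 times or 1 SD, and 12 moved further. The members with a higher promoter ratio numbered 4, but 7 with a window of -150 to 0 bp and 8 with the lowest 100 bp between -400 and +100 bp. They numbered 6 with the host median taken outside chromosomes II and X, and 2 to 4 when 1 library was left out (2 without YAC1, YAC2 or YAC7). All 4 remained among the 7, the 8 and the 6, and 3 of the 4 with a pseudocount of 0.5 times the gene mean, where IOC3 was lost. IOC3 and FUN30 were the calls lost without YAC1, YAC2 or YAC7. Of the 19 with a lower ratio, 16 remained with a pseudocount of 0.5 times the gene mean, 17 with the wider window and 14 with the lowest 100 bp. With the host median taken outside chromosomes II and X, 18 remained. Lower +1 heights were called for 11 members, and for 7 to 12 with 1 library left out (7 without YAC7). With the +1 nucleosome sought to 200 bp, SNF6, ISW2, SWR1, HTZ1 and CSE4 were no longer called lower. In the same setting RSC6, IOC4, FUN30, ARP8 and POB3 were no longer called higher. Lower array scores were called for 7, for 3 with the profile cut at +800 bp, and for 3 to 8 with 1 library left out (3 without YAC1, 4 without YAC3). Of the 7, only RSC4 and SPT6 were still called lower with that cut. The list's difference from the host median, -0.35, was -0.11 with a pseudocount of 0.5, -0.60 with 0.02 and -0.17 with the lowest 100 bp.

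For single named genes, the tally took the promoter ratio of each. It took +1 height, array score and strain groups only for the genes named by them. Here 526 values kept their direction and side of the threshold, 12 passed only under the alternative, 8 lost the call and 2 reversed. The 2 were CBF1 by promoter ratio with the lowest 100 bp (-0.71) and ISW2 by +1 height sought to 200 bp (0.23). Outside this tally, the SNF2 array score turned from lower (-0.20, limma adjusted p = 0.0362) to higher with the profile cut at +800 bp (0.26, adjusted p = 0.0393). The causes were not tested. No gene was called between the strain groups under any alternative run. No paired analysis was possible because the strain numbers are not shared between the groups. Depth in reads is unknown, a low body signal also raises a promoter ratio, and the windows ignore how long a gene is.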
